A study of Mus musculus with 8 samples.

Results

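The expression of 10 integrin genes was examined in adhesion-related macrophages (ARMs) and stromal vascular fraction macrophages (SMs) of mouse epididymal white adipose tissue (eWAT). The genes were chosen by name: 5 leukocyte integrins (Itgal, Itgam, Itgax, Itgb2 and Itga4) and 5 matrix-binding integrins (Itga1, Itga6, Itgav, Itgb1 and Itgb5). All 10 were found among the 17740 genes of the table for mice on a high-fat diet (HFD) and the 16436 genes of the table for mice on a normal diet (ND), and all 10 passed the filter on low counts in both.

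An integrin is a dimer of an alpha and a beta chain that spans the membrane and ties a surface ligand outside the cell to the actin cytoskeleton inside it. The beta2 chain, Itgb2, is made by leukocytes and pairs with Itgal, Itgam or Itgax to bind intercellular adhesion molecules and complement fragments, while Itga4 pairs with beta1 or beta7 chains and binds Vcam1. Itga1 and Itga6 pair with Itgb1 as receptors for collagens and laminins, and Itgav with Itgb5 binds vitronectin. Macrophages are known to use both kinds, and Itgax in particular is widely used to mark macrophages that gather in obese fat.

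The mice were wild-type male C57BL/6J animals in all 4 groups. From 6 weeks of age they were fed HFD for 8 weeks or ND, which the labels call chow. After collagenase digestion the floating adipocyte layer was vortexed with beads until the adipocytes lysed, and ARMs came from the cells then pelleted. SMs came from the pelleted stromal fraction without that step, and both were sorted as CD45+CD11b+F4/80+ cells. CD11b is the product of Itgam, so the presence of Itgam in every library follows from the gate. Each group had 2 libraries, each made from 6 pooled HFD mice or 10 pooled ND mice, so p-values measure the spread between pools. The sample titles call the SM libraries NARM.

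Total estimated counts were 18288775 to 19040133 in the HFD libraries and 14508824 to 16319038 in the ND libraries. The 10 macrophage markers (Adgre1, Csf1r, Cd68 and others) were detected in all 8 libraries, summed to 10974 to 11626 FPKM on HFD and 13088 to 13533 on ND, and none differed between ARMs and SMs by the test used below. FPKM, the fragments of a gene scaled to its length and to the library's size, is used here for levels. Fold changes are of normalized counts, ARMs over SMs, and a gene was called when the fold exceeded 1.5 and its p was under 0.05 in the quasi-likelihood test of edgeR, adjusted over all genes tested by the Benjamini-Hochberg method. In bulk samples, fewer cells of a type and less RNA per cell cannot be told apart.

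Itgax was the leukocyte integrin called higher in ARMs of both diets. The matrix-binding Itga6 was called higher in both, Itga1 in HFD mice only and Itgb5 in ND mice only. Itgb5 missed only the fold threshold in HFD mice (log2 fold change 0.51, adjusted p = 0.00122 by edgeR). For 0 of the 10 genes did the change differ between the diets after adjustment. Itgb2, Itgam, Itgb1 and Itga4 differed by at most 0.22 on the log2 scale in either diet and were not called. In HFD mice 3 of the 10 genes were called higher in ARMs, against 4.46% of all genes tested, and 0 lower, against 0.292%. In ND mice 3 of the 10 were called higher, against 3.55%, and 0 lower, against 0.129%. Before adjustment and without the fold threshold, the edgeR fit put Itgam lower in HFD ARMs at a p under 0.05 and no other gene in either diet. DESeq2 called 0 of the 10 lower in either diet. Its adjusted p for Itgam in HFD mice was 0.0321, at a log2 fold change of -0.22 that lay within the fold threshold.

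By class, 1 of 5 leukocyte integrins and 2 of 5 matrix-binding integrins were called in each diet. The median log2 fold change was 0.02 in HFD mice and 0.05 in ND mice for the leukocyte class, and 0.51 and 0.42 for the matrix-binding class, beside medians of -0.01 and -0.02 over the 13337 and 12441 genes tested. All 5 matrix-binding genes had a log2 fold change above 0 in both diets, and 3 of 5 leukocyte genes did. These are descriptions of chosen genes, and no test of one class against the other was made.

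**Figure D1:**
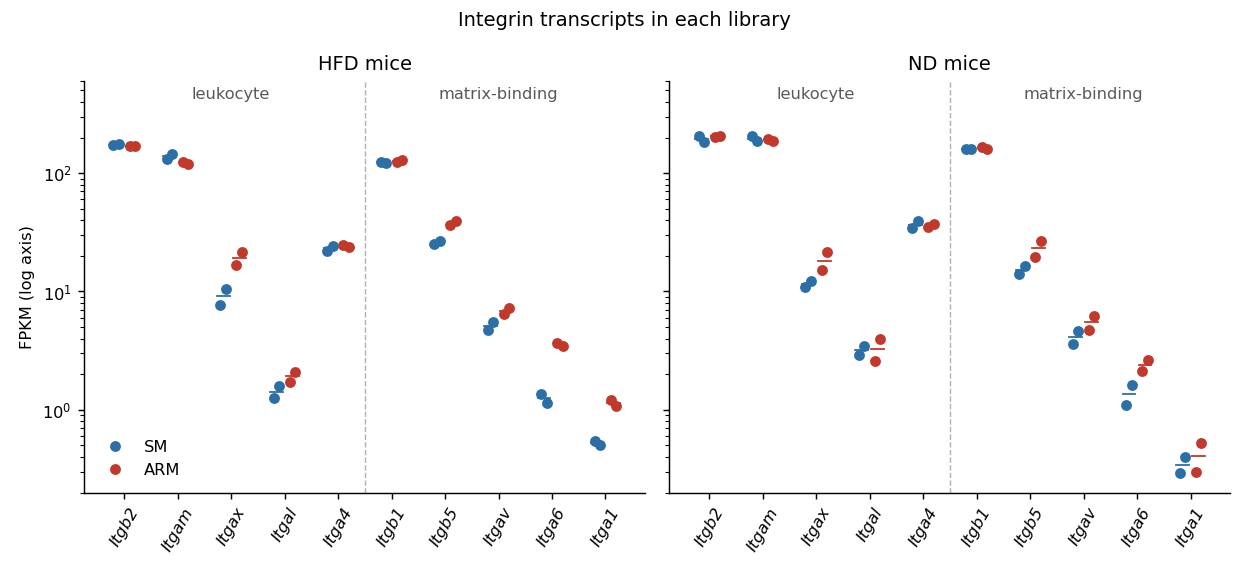
FPKM of the 10 integrin genes (log axis) in HFD and ND mice, with 1 point for each library (2 SM in blue, 2 ARM in red) and a short line for the group mean. Itgb2, Itgam and Itgb1 lie above 100 FPKM in every library and Itga1 lies at 0.29 to 1.2. In HFD mice both ARM points of all 5 matrix-binding genes lie above both SM points, narrowly for Itgb1 (125.02 against 124.51).

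In HFD ARMs the order by mean FPKM was Itgb2, Itgb1, Itgam, Itgb5, Itga4, Itgax, Itgav, Itga6, Itgal and Itga1, and no neighbours overlapped. In HFD SMs Itgam stood above Itgb1, at 132.59 and 144.88 FPKM against 124.51 and 121.75, whereas in HFD ARMs it stood below, at 123.66 and 119.31 against 125.02 and 129.5. Itgal and Itga6 exchanged places in the same way, with overlapping ranges in HFD SMs and Itga6 above Itgal in HFD ARMs. In ND mice Itga4 ranked above Itgb5 in both cell groups, and the ranges of Itgam and Itgb2 in SMs, of Itgb5 and Itgax in ARMs and of Itgal and Itga6 in ARMs overlapped.

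Among the beta2 partners, Itgam and Itgax are neighbours on chromosome 7 (Itgam at 7:128062640-128118491 and Itgax at 7:128129526-128150657 in RefSeq on GRCm38.p6), and both encode alpha chains of complement receptors. The 250 bases before the start sites of the RefSeq promoter table are shown because the genes share the Itgb2 partner and the neighbourhood but not the change. For Itgax that start site lies inside the gene span just given. Capitals mark matches to the AP-1 motif TGANTCA or to the PU.1 motif GAGGAA, which reads TTCCTC from the other strand, searched on both strands.
Itgax, + strand, chr7:128129300-128129549: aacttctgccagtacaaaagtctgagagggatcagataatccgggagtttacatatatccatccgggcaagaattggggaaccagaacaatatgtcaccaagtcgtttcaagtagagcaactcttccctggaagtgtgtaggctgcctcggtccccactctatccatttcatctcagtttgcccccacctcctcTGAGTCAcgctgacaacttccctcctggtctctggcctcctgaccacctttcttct
Itgam, + strand, chr7:128062390-128062639: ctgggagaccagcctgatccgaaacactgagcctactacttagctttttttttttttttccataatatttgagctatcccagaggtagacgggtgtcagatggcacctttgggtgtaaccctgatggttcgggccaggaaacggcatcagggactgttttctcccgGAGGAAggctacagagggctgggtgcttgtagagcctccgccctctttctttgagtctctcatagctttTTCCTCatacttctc
The Itgax window held 1 AP-1 match, beginning 56 bases before that table's start site, and no PU.1 match. The Itgam window held 2 PU.1 matches, beginning 84 and 15 bases before the start, and no AP-1 match. Over the 32851 promoters of the table, 6.75% held the AP-1 letters and 23.3% held the PU.1 letters. Promoters were given for 7 of the 10 genes, all but Itgal, Itgb2 and Itga6. Of those 7, 1 held an AP-1 match and 3 a PU.1 match (Itgam, Itgav and Itgb1). A match is a description of the letters and not a site of binding.

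Itgax, also known as CD11c, measured 16.87 and 21.56 FPKM in the HFD ARM libraries and 7.7 and 10.52 in the HFD SM libraries. Both ARM libraries were above both SM libraries, and the fold was 2.07 (log2 fold change 1.05, SE 0.14, adjusted p = 0.00117). Its ND levels were 15.11 and 21.37 in ARMs and 10.91 and 12.18 in SMs. The groups again did not overlap, and the fold was 1.59 (log2 fold change 0.67, SE 0.14, adjusted p = 0.0123). Itgax is also a gene of dendritic cells, whose 6 markers (Flt3, Zbtb46, Xcr1, Clec9a, Cd209a and Ccr7) gave 0 calls in either diet and summed to 75.7 and 77.2 FPKM in HFD ARMs against 102 and 105 in HFD SMs, and to 102 and 88.1 in ND ARMs against 109 and 109 in ND SMs. Cd209a made up most of each sum (68.96 of the 75.65 FPKM in HFD ARM replicate 1), and Xcr1 had log2 fold changes of 0.44 on HFD and 1.01 on ND. The part of dendritic cells in the Itgax change was not tested.

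Itgam, the alpha chain of complement receptor 3, measured 123.66 and 119.31 FPKM in HFD ARMs and 132.59 and 144.88 in HFD SMs. The ARM libraries were below the SM libraries, by a log2 fold change of -0.22 (SE 0.07, adjusted p = 0.0674). In ND mice the values were 193.14 and 185.13 in ARMs and 204.08 and 185.56 in SMs, which overlapped (log2 fold change -0.04, 95% interval -0.25 to 0.17, adjusted p = 0.913).

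Itgal, the alpha chain of LFA-1, which binds Icam1, was a low transcript, at 1.73 and 2.1 FPKM in HFD ARMs and 1.26 and 1.59 in HFD SMs. The groups did not overlap, but the log2 fold change of 0.38 (SE 0.15, adjusted p = 0.163) was not called. In ND mice ARMs had 2.59 and 3.95 and SMs 2.88 and 3.49, with the SM values inside the ARM range (log2 fold change 0.05, 95% interval -0.34 to 0.44, adjusted p = 0.945). The interval in ND mice leaves room for a change of about the HFD size.

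Itgb2, the shared beta chain, was not called. It measured 168.29 and 170.63 FPKM in HFD ARMs and 172.8 and 175.11 in HFD SMs (log2 fold change -0.07, 95% interval -0.20 to 0.06, adjusted p = 0.55). In ND mice it measured 202.41 and 207.03 in ARMs and 205.01 and 183.95 in SMs (0.08, 95% interval -0.14 to 0.29, adjusted p = 0.82).

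The make-up of the alpha partners of Itgb2 differed between ARMs and SMs. Itgax made up 11.9% and 15.1% of the summed FPKM of Itgal, Itgam and Itgax in HFD ARMs and 5.44% and 6.70% in HFD SMs. In ND mice the share was 7.17% and 10.2% in ARMs and 5.01% and 6.05% in SMs. Itgam remained the main partner transcript in every library, at 83.5% to 93.7% of the sum, and the ratio of Itgam to Itgax was 7.33 and 5.53 in HFD ARMs against 17.2 and 13.8 in HFD SMs. The ARM and SM ranges of the Itgax share did not overlap in either diet, and an exact permutation test of 2 libraries against 2 cannot give a two-sided p below 0.333.

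Itga4, which guides leukocytes to Vcam1 on vessel walls, was not called. It measured 24.51 and 23.55 FPKM in HFD ARMs and 22.01 and 24.43 in HFD SMs (log2 fold change 0.02, 95% interval -0.14 to 0.18, adjusted p = 0.905). The ND values were 34.89 and 37.22 in ARMs and 34.35 and 39.2 in SMs (-0.02, 95% interval -0.24 to 0.19, adjusted p = 0.951). Both intervals exclude a fold of 1.5 in either direction.

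Among the matrix-binding chains, Itga6, a laminin receptor, had the largest fitted change of the 10 in both diets, although in ND mice Itgax came first without ND SM replicate 1 (0.58 against 0.57) and by limma on log2(FPKM + 1) (0.60 against 0.53). It measured 3.65 and 3.48 FPKM in HFD ARMs against 1.37 and 1.15 in HFD SMs, from estimated counts of 400 and 380 against 154 and 130. The groups stood apart by a fold of 2.79 (log2 fold change 1.48, SE 0.11, adjusted p = 4.57e-05). ND ARMs had 2.11 and 2.66 and ND SMs 1.09 and 1.61, without overlap, a fold of 1.76 (log2 fold change 0.82, SE 0.19, adjusted p = 0.0243).

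Itga1, or CD49a, a collagen receptor, was the lowest of the 10 in every group. It measured 1.2 and 1.08 FPKM in HFD ARMs and 0.54 and 0.5 in HFD SMs, from estimated counts of 134 and 119 against 62 and 57. The libraries did not overlap and the fold was 2.16 (log2 fold change 1.11, SE 0.18, adjusted p = 0.00341). In ND mice it was lower still, at 0.3 and 0.52 in ARMs and 0.29 and 0.4 in SMs, from 25 to 44 counts a library. Those groups overlapped, and the log2 fold change was 0.25 (SE 0.35, 95% interval -0.50 to 1.001, adjusted p = 0.832).

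Itgb5, a beta chain that pairs with Itgav alone, measured 36.15 and 39.03 FPKM in HFD ARMs and 25.25 and 26.65 in HFD SMs, without overlap. Its fold of 1.42 lay under the 1.5-fold threshold (log2 fold change 0.51, SE 0.07, adjusted p = 0.00122). The ND values were 19.63 and 26.93 in ARMs and 14.17 and 16.3 in SMs, also without overlap, and its fold of 1.53 lay just over the threshold (log2 fold change 0.61, SE 0.14, adjusted p = 0.0174). The call in ND mice and its absence in HFD mice thus lie on either side of the fold threshold, with the smaller adjusted p in HFD mice.

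Itgav, the alpha chain for vitronectin and other proteins with an RGD sequence, measured 6.42 and 7.19 FPKM in HFD ARMs and 4.74 and 5.53 in HFD SMs. The groups did not overlap, and the log2 fold change of 0.38 (SE 0.09, adjusted p = 0.0247) was under the fold threshold. ND libraries had 4.74 and 6.25 in ARMs and 3.59 and 4.61 in SMs (0.42, SE 0.15, adjusted p = 0.153). Itgb5 exceeded its partner Itgav in FPKM by a factor of 4.82 to 5.63 in the HFD libraries and 3.54 to 4.31 in the ND libraries.

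Itgb1, the beta chain shared by most matrix receptors, was not called, at 125.02 and 129.5 FPKM in HFD ARMs and 124.51 and 121.75 in HFD SMs (log2 fold change 0.02, 95% interval -0.11 to 0.15, adjusted p = 0.894). ND libraries had 166.73 and 158.82 in ARMs and 158.85 in each SM library (0.04, 95% interval -0.16 to 0.24, adjusted p = 0.915). Thus both abundant beta chains, Itgb1 and Itgb2, had intervals within a fold of 1.5 in both diets.

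**Figure D2:**
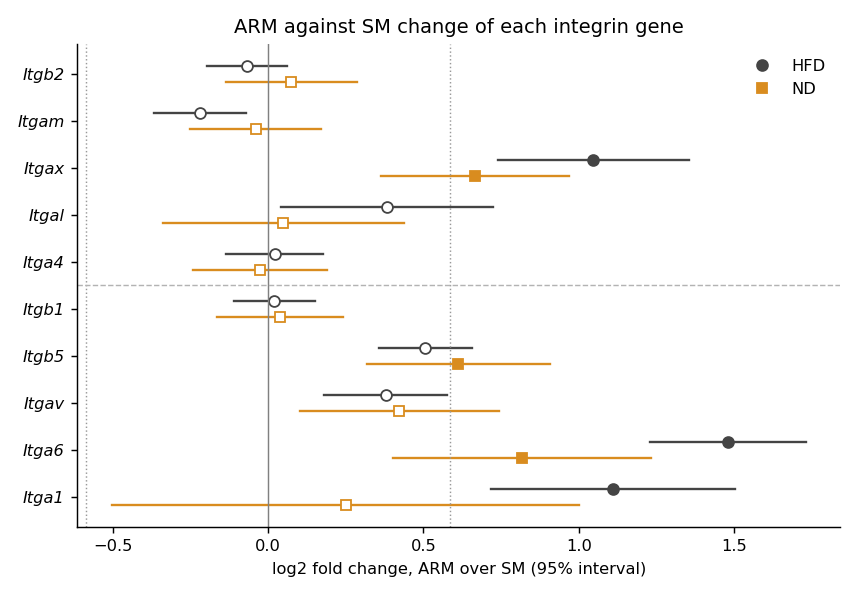
Log2 fold change of each integrin gene, ARMs over SMs, with its 95% interval, in HFD mice (grey circles) and ND mice (orange squares). Filled symbols are called genes, dotted lines mark a fold of 1.5, and the dashed line parts the leukocyte genes (above) from the matrix-binding genes (below), where Itga6 reaches 1.48 in HFD mice.

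Counted by separation alone, 7 of the 10 genes had both HFD ARM libraries above both HFD SM libraries, where 29.2% of all genes tested did, and 2 of 10 (Itgam and Itgb2) had them below, where 21.3% did. In ND mice 4 of the 10 genes (Itgax, Itga6, Itgav and Itgb5) had ARMs above SMs, against 20.9% of all genes, and 0 had them below, against 22.4%. By class, the genes with ARMs above were 2 leukocyte and 5 matrix-binding genes in HFD mice and 1 and 3 in ND mice. With 2 libraries a group, many genes that were not called also separate.

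Sums over the classes moved less than the single genes, because Itgb2, Itgam and Itgb1 dominate them. The log2 ratio of summed matrix-binding to summed leukocyte FPKM was -0.96 and -0.90 in HFD ARMs and -1.10 and -1.20 in HFD SMs. In ND mice it was -1.21 and -1.22 in ARMs and -1.36 and -1.22 in SMs. The difference of the means, ARMs minus SMs, was 0.22 in HFD mice and 0.08 in ND mice, and ND SM replicate 2 was close to both ND ARM libraries.

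The less abundant matrix-binding chains took a larger share of sums over chains of both classes in ARMs. Itgb5 made up 10.97% and 11.51% of the summed FPKM of Itgb1, Itgb2 and Itgb5 in HFD ARMs and 7.83% and 8.24% in HFD SMs, and 5.05% and 6.86% in ND ARMs against 3.75% and 4.54% in ND SMs. Itga1 and Itga6 together made up 13.6% and 12.9% of the summed FPKM of Itga1, Itga4, Itga6 and Itgav in HFD ARMs against 6.66% and 5.22% in HFD SMs. In ND mice that share was 5.73% and 6.82% in ARMs and 3.51% and 4.39% in SMs. None of these ranges overlapped within a diet. The sum of alpha chains leaves out Itga5, at 119.17 and 113.74 FPKM in HFD ARMs, and Itga9, at 24.17 and 23.15. The share of Itga1 and Itga6 among all alpha chains is therefore much smaller than these values.

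**Figure D3:**
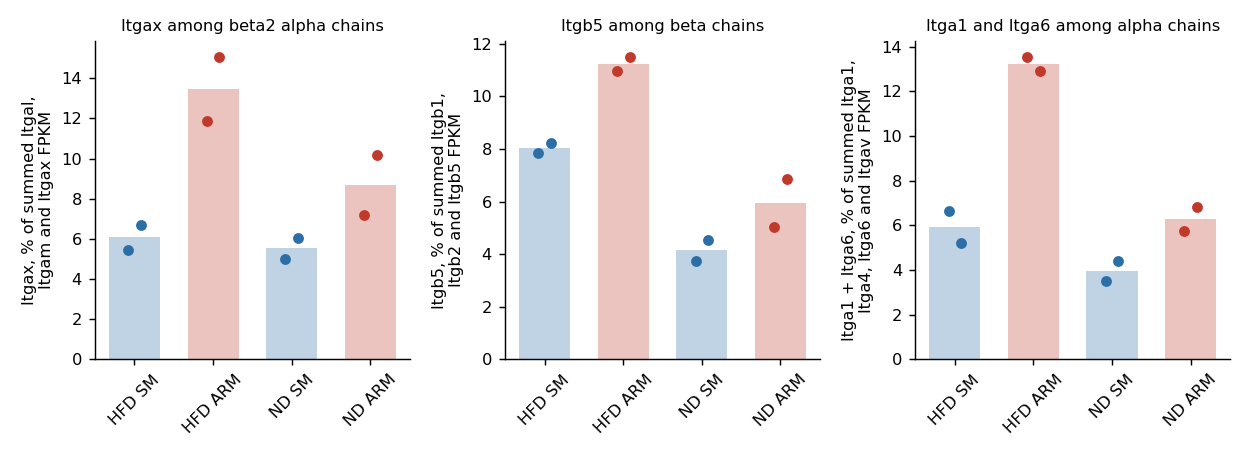
Shares of summed FPKM in each library (points) with the group mean (bars, axis from 0): Itgax among the alpha chains that pair with beta2, Itgb5 among 3 beta chains, and Itga1 with Itga6 among 4 alpha chains. Those 4 are Itga1, Itga4, Itga6 and Itgav, and the more abundant Itga5 is left out. In each panel and diet both ARM points (red) lie above both SM points (blue), with HFD ARMs highest.

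The change in HFD mice was set against the change in ND mice in one fit of all 8 libraries. Of the 10 genes, 0 differed between the diets by edgeR after adjustment, where 0.165% of the 13358 genes tested did, and 2 had an unadjusted p under 0.05, where 7.61% of all genes did. These were Itga1, whose log2 fold change was greater in HFD mice by 0.85 (95% interval 0.02 to 1.68, adjusted p = 0.643), and Itga6, greater by 0.65 (0.13 to 1.17, adjusted p = 0.476). For Itgax the difference was 0.37 (-0.14 to 0.87, adjusted p = 0.816), and for Itgb5 it was -0.12 (-0.49 to 0.25, adjusted p = 0.95). The other 6 genes had an adjusted p of 0.786 or more.

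Levels on the 2 diets were compared as values only, since the counts of the 2 tables differed in how many were whole and may have been made differently. Itgb5 was higher on HFD in both cell groups, by a log2 FPKM ratio of 0.69 in ARMs and 0.77 in SMs, and Itgav by 0.31 and 0.32. Itga1 was higher by 1.48 in ARMs and 0.59 in SMs, and Itga6 by 0.58 in ARMs, with overlapping libraries in SMs (-0.10). The leukocyte chains went the other way, with Itgal lower on HFD by a log2 ratio of -0.77 in ARMs and -1.16 in SMs, Itgam by -0.64 and -0.49, Itga4 by -0.59 and -0.66 and Itgb2 by -0.27 and -0.16. Itgb1 was lower by -0.36 and -0.37. Itgax overlapped between the diets in ARMs (0.08) and was lower on HFD in SMs (-0.34). Ratios of TPM and of normalized counts kept each of these signs, but the SM values shrank on normalized counts to -0.03 for Itgb2 and -0.22 for Itgax.

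Of the other 17 integrin subunit genes, 11 passed the filter in HFD mice and 10 in ND mice, and 1 was called higher in each diet. Itga3, a laminin receptor chain, was called in HFD mice (log2 fold change 1.32, adjusted p = 0.0372) at only 0.51 and 0.5 FPKM in ARMs and 0.27 and 0.14 in SMs. Itga5, the fibronectin receptor chain, was called in ND mice, at 69.19 and 73.58 FPKM in ARMs and 41.54 and 44.42 in SMs (0.74, adjusted p = 0.000334). In HFD mice Itga5 measured 119.17 and 113.74 against 85.82 and 96.3 (0.33, adjusted p = 0.0186), under the fold threshold. Itga5 was thus the most abundant alpha chain after Itgam in all 4 groups.

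Of the ligands of leukocyte integrins, 2 of 11 tested were called higher in HFD mice and 2 of 8 in ND mice, and 0 lower. Vcam1, the ligand of Itga4, measured 56.12 and 48.22 FPKM in HFD ARMs and 32.78 and 29.91 in HFD SMs (log2 fold change 0.71, adjusted p = 0.000751), while Itga4 itself was not called. F11r (junctional adhesion molecule A, a ligand of Itgal) was the other in HFD mice (0.93). In ND mice C3, whose fragments bind Itgam and Itgax, was called (1.35), as was Jam2 (0.997). C3 and Jam2 had log2 fold changes of 0.52 and 0.92 in HFD mice and were not called there. Vcam1 and F11r had 0.55 and 1.17 in ND mice, likewise not called. Of these, C3 and Vcam1 missed only the fold threshold (adjusted p = 0.000662 and 0.00683 by edgeR). Icam1, a ligand of Itgal and Itgam, had log2 fold changes of -0.07 and 0.13 and was not called.

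Of the matrix ligands, 21 of 27 tested were called higher in HFD ARMs and 20 of 26 in ND ARMs, with median log2 fold changes of 0.90 and 1.33. Col1a1, Col1a2 and Col3a1 of this list are also in the fibroblast marker list below, of which 6 of 12 genes were called in HFD mice and 9 of 12 in ND mice, and 11 of 12 endothelial markers were called in HFD mice. The part of such cells in the ligand changes was not tested. The basement membrane genes Col4a1 and Col4a2, whose products bind Itga1, had log2 fold changes of 1.35 and 1.39 in HFD mice and 1.47 and 1.28 in ND mice. Hspg2 (1.21 and 1.51) and Spp1, a ligand of Itgav and Itga4 (1.16 and 1.04), were called in both diets. Vtn, the ligand of Itgav with Itgb5, was called in HFD mice (1.32, 1.53 and 2.26 FPKM in ARMs against 1.03 and 0.45 in SMs) and was not in ND mice (1.34, adjusted p = 0.126). Tnc was called in HFD mice (1.36) and fell under the count filter in ND mice.

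Of the genes that activate integrins or link them to actin, 5 of 37 tested were called higher in HFD mice and 2 of 37 in ND mice, with medians of 0.06 and 0.04. Those called in HFD mice were Parva (1.40), Fermt2 (1.18), Lims2 (1.05), Src (0.74) and Actn1 (0.61), and those in ND mice were Bcar1 (1.47) and Fermt2 (1.27). Without a call, Parva, Lims2, Src and Actn1 had 0.77, 0.87, 0.77 and 0.49 in ND mice, and Bcar1 had 0.53 in HFD mice. The abundant adaptors were not called, with log2 fold changes in HFD and ND mice of -0.01 and -0.03 for Tln1 (talin), 0.05 and 0.04 for Fermt3 (the kindlin of blood cells) and 0.02 and 0.05 for Vcl (vinculin). Fermt2, the kindlin of most other cells, measured 4.24 and 4.42 FPKM in HFD ARMs against 2.14 and 1.6 in HFD SMs.

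Markers of some other cell types also differed between ARMs and SMs. Of 11 adipocyte markers tested, 10 were called higher in HFD ARMs and 9 in ND ARMs, and their summed FPKM was 211 and 228 in HFD ARMs against 48.7 and 50.0 in HFD SMs, and 181 and 298 in ND ARMs against 91.2 and 114 in ND SMs. Of 12 endothelial markers, 11 were called higher in HFD ARMs and 1 in ND ARMs, with sums of 62.5 and 59.8 against 25.4 and 17.9 FPKM in HFD mice and 15.6 and 33.2 against 12.6 and 14.7 in ND mice. Endothelial cells are known to express Itga1, Itga6 and Itgb5 as well. On HFD all 12 endothelial markers had a log2 fold change above 0 (median 1.46). The same held for all 12 on ND (median 0.78), although only 1 was called there. The part of adipocytes and endothelial cells in the integrin changes was not tested. No marker listed in the tables for these types was at 0 in all 4 libraries of a diet.

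Fibroblast and progenitor markers were higher for 6 of 12 genes in HFD ARMs and 9 of 12 in ND ARMs, with sums of 228 and 271 against 166 and 152 FPKM, and 270 and 393 against 114 and 146. Of the mesothelial markers 0 of 8 were called in HFD mice and 7 of 8 in ND mice, of the pericyte and smooth muscle markers 4 of 9 and 3 of 9, and of the lymphatic markers 3 of 6 and 4 of 6, all higher. Monocyte markers gave 1 of 6 called higher in each diet, T and NK cell markers 1 of 4 and 0 of 2, and neutrophil markers 0 of 4 in HFD mice and 1 of 5, lower, in ND mice. B cell, platelet and proliferation markers gave 0 calls. The part of these cell types in the integrin changes was not tested either.

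**Figure D4:**
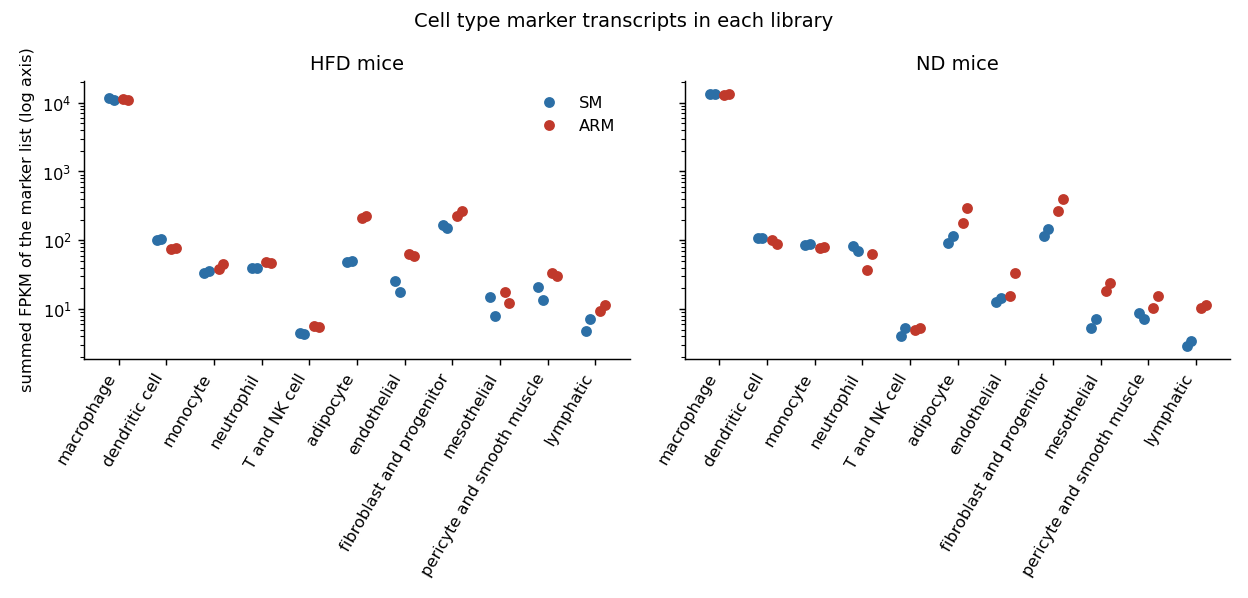
Summed FPKM (log axis) of the marker genes of 11 cell types in each library, SMs in blue and ARMs in red. Macrophage sums are at least 10974 FPKM in all 8 libraries, adipocyte sums are higher in both ARM libraries of each diet, and endothelial sums in HFD mice are 62.5 and 59.8 against 25.4 and 17.9.

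ND ARM replicate 2 had higher adipocyte, endothelial and fibroblast sums than ND ARM replicate 1, and also the higher Itgax, Itga6, Itgb5, Itgav, Itgal and Itga1. The same sums and genes were also higher in ND SM replicate 2 than in ND SM replicate 1. HFD replicates were not ordered in that way. Endothelial sums were lower in replicate 2 than in replicate 1 of HFD SMs (17.9 against 25.4 FPKM) and HFD ARMs (59.8 against 62.5). Fibroblast sums were lower in SM replicate 2 and higher in ARM replicate 2, and adipocyte sums were higher in both. Itgax, Itgav, Itgb5 and Itgal were higher in both HFD replicates 2, and Itga6 and Itga1 lower. A link of sums to genes was not tested. Without ND ARM replicate 2, 0 of the 10 genes were called in ND mice, and the log2 fold change was 0.39 for Itgax, 0.65 for Itga6 and 0.36 for Itgb5. Without ND SM replicate 1, 0 were called as well (0.58, 0.57 and 0.51). Without ND ARM replicate 1 or ND SM replicate 2, 4 were called, with Itgav added. In HFD mice Itga6 was called with any library left out, Itgax was lost without HFD ARM replicate 2 (0.88, adjusted p = 0.0532) and Itga1 without HFD ARM replicate 1 (1.01, adjusted p = 0.0647). Each of the called genes kept its direction with any of the 4 libraries of its diet left out.

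**Figure D5:**
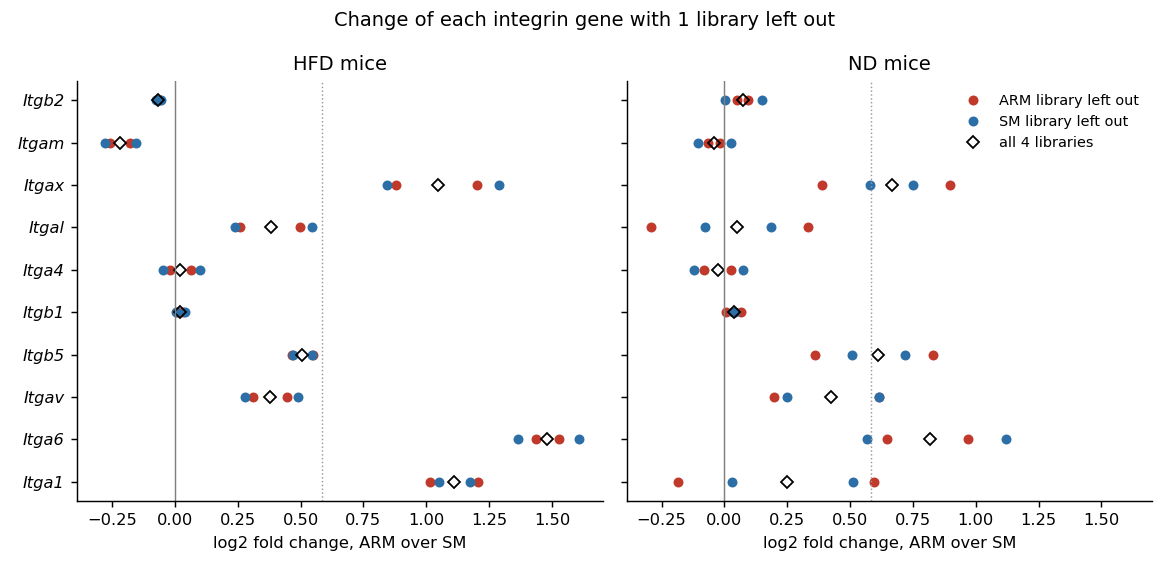
Log2 fold change, ARMs over SMs, of each integrin gene with all 4 libraries of a diet (open diamonds) and with 1 ARM (red) or 1 SM (blue) library left out. The points of Itga6 in HFD mice stay between 1.36 and 1.61, whereas those of Itgax in ND mice run from 0.39 to 0.90, across the dotted line at a fold of 1.5.

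For each gene called in a diet, the 3 genes most alike were taken from 12343 genes by Pearson's r of log2 CPM (counts scaled to library size) over the 8 libraries, centred on the mean of each diet. They were Col28a1, Rasal3 and Atp8b4 for Itgax (r = 0.992, 0.99 and 0.99), and Rflnb, Dysf and Kdr for Itga1 (0.996, 0.988 and 0.986). For Itga6 they were Sox17, Parva and Scd1 (0.995, 0.993 and 0.992), and for Itgb5 they included Itih5 and Hspg2 (0.997 and 0.996). Kdr and Sox17 are in the endothelial marker list and Parva in the list of integrin linkage genes. These values describe 8 points that share libraries and the contrast of ARMs with SMs.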

How the data were processed

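RNA of sorted ARMs and SMs was sequenced in 8 libraries, and the authors deposited estimated read counts, FPKM and TPM per gene and library in a table for each diet, on mm10 per the labels. The aligner, counter and annotation are not given in the sources used here. Columns of averages that the authors deposited were not used. Of the deposited estimated counts, 32.3% to 32.9% were not whole on HFD and 8.55% to 9.36% on ND, so the tables may have been made differently. Among the 10 integrins, 4 on HFD and 3 on ND had such counts.

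Counts were rounded and fitted for each diet with edgeR 4.0.16 (R 4.3.3): TMM, filterByExpr, quasi-likelihood tests and p-values adjusted by Benjamini-Hochberg over all genes tested. The log2 SE came from the F statistic, and intervals were 95%. Deposited FPKM and TPM served for levels, ratios and the diets' values. Alternatives were DESeq2 1.42.0, limma 3.58.1 on log2(FPKM + 1) and log2(FPKM + 0.1), other scalings and filters, the study's other threshold, a replicate block, and each library left out. The code was tested on simulated data. Named genes were the 10 integrins, genes called from lists of integrins, ligands, linkage genes and cell markers (at most 6 a list, by HFD change), and the 3 genes most alike to each called integrin. For Itgb5, 1 of those 3 is not reported here. Icam1, Tln1, Fermt3 and Vcl, the markers and the list genes named as not called were added after their values were seen. The integrins and lists were chosen with earlier results of these data known. Promoters came from RefSeq (GRCm38.p6).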

Additional observations from a re-analysis of the deposited data

How the results depend on the processing

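In HFD mice the 3 integrins called became 5 with no fold threshold (Itgav and Itgb5 added), 2 by limma on log2(FPKM + 1), 2 without a count filter (Itgax lost, adjusted p = 0.0793) and 0 by limma on log2(FPKM + 1) without a filter. In ND mice the 3 became 2 by DESeq2 (Itga6 lost, adjusted p = 0.0757), and 0 by limma on log2(FPKM + 0.1), on log2(FPKM + 1) and on the latter without a filter. Leaving out 1 library gave 2 to 3 in HFD mice and 0 to 4 in ND mice. Over all genes, 634 were called in HFD mice, against 383 by DESeq2, 1274 with no fold threshold, 405 by limma on log2(FPKM + 0.1), 331 on log2(FPKM + 1), 35 on that without a filter, 181 without a count filter and 1017 at the study's other threshold (unadjusted p under 0.05, log2 beyond 0.6). With 1 library left out the count ran from 214 (without HFD ARM replicate 2) to 637, and was 309 without HFD ARM replicate 1. In ND mice 458 were called, against 267 by DESeq2, 219, 214 and 0 by limma in the same order, and 888 at the other threshold, and 188 (without ND ARM replicate 2) to 661 with 1 library left out, with 254 when that was ND SM replicate 1. The cause of these shifts was not tested. With the replicate number as a block, 673 genes were called in HFD mice and 786 in ND mice, with 3 integrins in each and 0 for the difference between diets, and no integrin changed its call. Same-numbered libraries deviated together with r = -0.03 on HFD and 0.22 on ND, and whether same-numbered libraries came from the same mice is not given in the sources used here. With 2 pairs the check cannot settle it. In ND mice the block took Itgav to an adjusted p of 0.00142 at a log2 fold change of 0.42, still under the fold threshold.

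The median log2 fold change with 1 library left out was -0.049 to 0.098 (leukocyte) and 0.47 to 0.55 (matrix-binding) in HFD mice, and -0.018 to 0.096 and 0.20 to 0.62 in ND mice. The difference in the log2 ratio of the classes ran from 0.17 to 0.27 and from 0.0074 to 0.145. Direction turned only with a library left out, for Itga4 in HFD mice (-0.049 to 0.098) and for Itga1 (-0.18 to 0.60), Itga4 (-0.123 to 0.076), Itgal (-0.29 to 0.33) and Itgam (-0.104 to 0.025) in ND mice, none of them called there. Precision is limited by 2 pools a group, and for Itga1 in ND mice by 25 to 44 counts.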

Other observations

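On log2 CPM (counts scaled to library size) centred on each diet's mean, Pearson's r over the 8 libraries was 0.96 for Itgav with its partner Itgb5, 0.93 for Itgax with Itgb5, 0.92 for Itgax with Itgav, 0.91 for Itga1 with Itga6 and 0.90 for Itgax with Itga6. Itgam had negative values, of -0.88 with Itga6, -0.86 with Itga1 and -0.72 with Itgax. The libraries fall into ARMs and SMs, so these values describe that contrast and the libraries the genes share.

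Itgb7, the other beta chain for Itga4, had log2 fold changes of -0.50 in HFD mice (adjusted p = 0.0709 by edgeR) and -0.48 in ND mice (adjusted p = 0.118), which were not called. It measured 2.2 and 2.64 FPKM in HFD ARMs against 3.06 and 3.65 in SMs, and 3.77 and 4.52 against 5.47 and 6.11 in ND mice, with ARMs below SMs in both diets. Itga9, a receptor for Vcam1 and tenascin, was level at 24.17 and 23.15 FPKM in HFD ARMs against 22.46 and 23.94 in SMs. Both were chosen for mention after their values were seen.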
